A study of Rattus norvegicus with 6 samples.

Results

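The spliceosome removes introns from pre-mRNA, and the genes described here encode the proteins of its core. They were taken as the protein-coding genes that the deposited annotation places in the KEGG spliceosome pathway, without the SR proteins, the hnRNPs, the TRA2 and HSP70 families and the DEAD-box and DEAH-box helicases, which were left out by their symbols. This left 102 genes of the 134 carrying the term and of 32623 genes in the table, with 2 dropped by biotype and 30 by symbol. RNA sequencing measured their expression in cultured cells of the nucleus pulposus, the soft core of the intervertebral disc, taken from the lumbar spine of male Sprague-Dawley rats that were 4 weeks old. All cells had been cultured to passages 3 to 5 and then exposed for 72 hours to a lentivirus, which carried either a hairpin against Bmal1, the clock transcription factor gene also called Arntl (3 libraries, called shBmal1), or a negative control hairpin (3 libraries, called shNC). Whether the 3 libraries of a group stand for separate cultures or animals is not stated in the labels, and all p-values reflect the spread among these libraries, which may be technical.

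Splicing starts when the U1 particle binds the start of an intron and the U2 particle, with its SF3A and SF3B proteins, binds the branch site near the end. The U4/U6.U5 tri-snRNP then joins, the PRP19 complex and its partners help to form the catalytic centre, and step 2 factors act when the exons are joined. Rings of Sm or LSm proteins hold the small nuclear RNAs of these particles, and the exon junction complex stays on the spliced mRNA. BMAL1 with CLOCK binds the E-box CACGTG, and many housekeeping promoters carry the ETS factor motif CCGGAAG.

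Promoters from RefSeq (build GRCr8) were matched by symbol to 84 of the 100 member symbols, and both motifs were searched on both strands from 250 bases before to 50 bases after each start. CACGTG stood in 3 of the 84 promoters (3.57%) and in 6.65% of all 27457. CCGGAAG stood in 32 of the 84 (38.1%) and in 9.22% of all. Promoters of members higher in shBmal1 held CCGGAAG in 19 of 61 cases, those of lower members in 2 of 7 and those of members not called in 11 of 16. The 3 members with CACGTG were Prpf3, Smndc1 and Prpf19. They are shown with Slu7, the splicing factor gene with the largest rise, as the 250 bases before the start, 5′ to 3′ on the strand of the gene, with both motifs in capitals.
Prpf3: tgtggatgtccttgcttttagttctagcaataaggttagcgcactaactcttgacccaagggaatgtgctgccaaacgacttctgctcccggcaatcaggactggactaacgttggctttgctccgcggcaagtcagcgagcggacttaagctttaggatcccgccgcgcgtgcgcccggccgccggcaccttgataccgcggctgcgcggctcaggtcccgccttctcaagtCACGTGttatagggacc
Smndc1: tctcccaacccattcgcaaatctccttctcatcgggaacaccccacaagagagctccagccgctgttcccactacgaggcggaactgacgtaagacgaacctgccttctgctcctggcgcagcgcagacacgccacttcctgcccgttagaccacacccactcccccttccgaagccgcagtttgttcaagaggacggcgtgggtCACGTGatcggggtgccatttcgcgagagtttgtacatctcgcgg
Prpf19: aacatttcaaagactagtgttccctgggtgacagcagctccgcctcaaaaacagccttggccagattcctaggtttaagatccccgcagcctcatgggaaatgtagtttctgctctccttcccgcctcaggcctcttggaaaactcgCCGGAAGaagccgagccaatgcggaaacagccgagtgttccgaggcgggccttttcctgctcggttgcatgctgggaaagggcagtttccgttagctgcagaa
Slu7: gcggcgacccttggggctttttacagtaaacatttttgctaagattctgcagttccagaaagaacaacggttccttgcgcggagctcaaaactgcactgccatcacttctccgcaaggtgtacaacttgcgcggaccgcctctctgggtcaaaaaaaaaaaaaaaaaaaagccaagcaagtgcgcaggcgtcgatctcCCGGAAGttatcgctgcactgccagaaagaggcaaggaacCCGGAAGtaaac
These windows lie at chr2:186092428-186092677 (minus strand), chr1:262406105-262406354 (minus strand), chr1:216966257-216966506 (plus strand) and chr10:28409615-28409864 (plus strand). Counting back from -1 as the last base before the start, the first base of CACGTG was at -17 in Prpf3 and at -45 in Smndc1, while in Prpf19 it lay after the start, at 29, outside the printed window. CCGGAAG began at -103 in Prpf19 and at -52 and -12 in Slu7. A motif match is a description of the letters alone, and binding was not measured here.

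The shNC libraries held between 44043803 and 49783710 counts over genes and the shBmal1 libraries between 8773762 and 11679587, a ratio of means of 4.44. Depth therefore moved with the group. Genes of rRNA biotypes took 0.0371% to 0.0776% of counts in shNC and 0.828% to 1.68% in shBmal1. Arntl, the targeted gene, had 1220, 1396 and 1333 counts in shNC and 20, 52 and 25 in shBmal1. Of 15 markers of nucleus pulposus and notochord, Shh, Tbxt and Noto were at 0 in all 6 libraries, and the summed level of the list was 2850 to 3072 CPM in shNC and 441 to 462 CPM in shBmal1 (11 tested, 2 higher, 5 lower). Over all genes tested, 36.0% were higher and 35.3% lower. In mean CPM, Mgp went from 1614 to 198, Acan from 647 to 32.8 and Pax1 from 527 to 84.8. The markers did not move as one, since Foxf1 (log2 fold change 0.56) and Ca3 (1.35) were higher and Sox9 was not called (-0.04). Summed markers of other cells were low, apart from the epithelial ones, which varied widely among shBmal1 libraries. Over 6 leukocyte markers they reached 0.853 to 2.07 CPM in shNC and 5.95 to 9.57 CPM in shBmal1, and Cd3e and Adgre1 had 0 counts in shNC. Over 4 endothelial markers found they reached 0 to 0.380 CPM and 1.29 to 2.12 CPM, and over 2 epithelial markers 11.7 to 15.6 CPM and 9.04 to 67.4 CPM. In shBmal1, Cd3e had 0, 0 and 8 counts and Adgre1 had 12, 8 and 0. Epcam was called higher, and Gfap, Map2 and Cdh1 were tested and not called. Lyz2, Cd68 and Tie1 were also called higher, but their shNC libraries alone would not have passed the filter on low counts described below. These genes were kept through shBmal1, where they are higher, so their calls are not read as rises. Counts of Lyz2 were 14, 15 and 46 in shNC and 37, 24 and 28 in shBmal1. Counts of Cd68 were 24, 12 and 18 in shNC and 36, 19 and 39 in shBmal1. Those of Tie1 were 4, 0 and 4 in shNC and 12, 7 and 7 in shBmal1. Neural markers summed to 6.90 to 7.22 CPM and 6.70 to 7.50 CPM, with Snap25 and Rbfox3 at 0, and erythroid markers to 0 to 0.190 CPM and 0 to 0.331 CPM. The part of depth, rRNA reads and cell makeup in the results below was not tested.

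Most core spliceosome genes were higher in shBmal1. CPM here are library-scaled counts with TMM factors, and a gene was called at an adjusted p under 0.05 in edgeR's quasi-likelihood test over all 14342 genes tested. Of 101 members tested, 72 were higher, 7 were lower and 22 were not called. The counts in this paragraph include 4 rows of other families, described at the end with counts that leave them out. Over all genes, 71.3% were called in either direction, 36.0% higher and 35.3% lower. The same shares are the reference for each role group and gene list counted below. The median log2 fold change was 0.95 over the members and -0.01 over all genes. Rises of at least 2-fold were called in 47 members (25.4% of all genes) and falls of that size in 4 (21.9% of all genes). The 3 shBmal1 libraries all lay above the 3 shNC libraries in 75 members (38.2% of all genes) and all below in 8 (39.2% of all genes). The remaining member, Wbp11l1, did not pass the filter on low counts, which asks for enough of them in as many libraries as a group holds. In these bulk samples fewer cells of a type and less RNA per cell cannot be told apart.

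The split depended on how levels were scaled. When the deposited FPKM were rescaled to TPM and compared with limma on log2(TPM + 1), 54 members were higher and 13 lower, so that 80.6% of member calls were rises against 91.1% with the count test. Over all genes the share of calls that were rises fell likewise, from 50.5% to 37.8%. On that scale the median of all genes moved down by 0.33, to -0.35, and the median of the members was 0.55. The 53 rises called with both pseudocounts on TPM include all those of at least 2-fold named below except Snrpe.

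**Figure D1:**
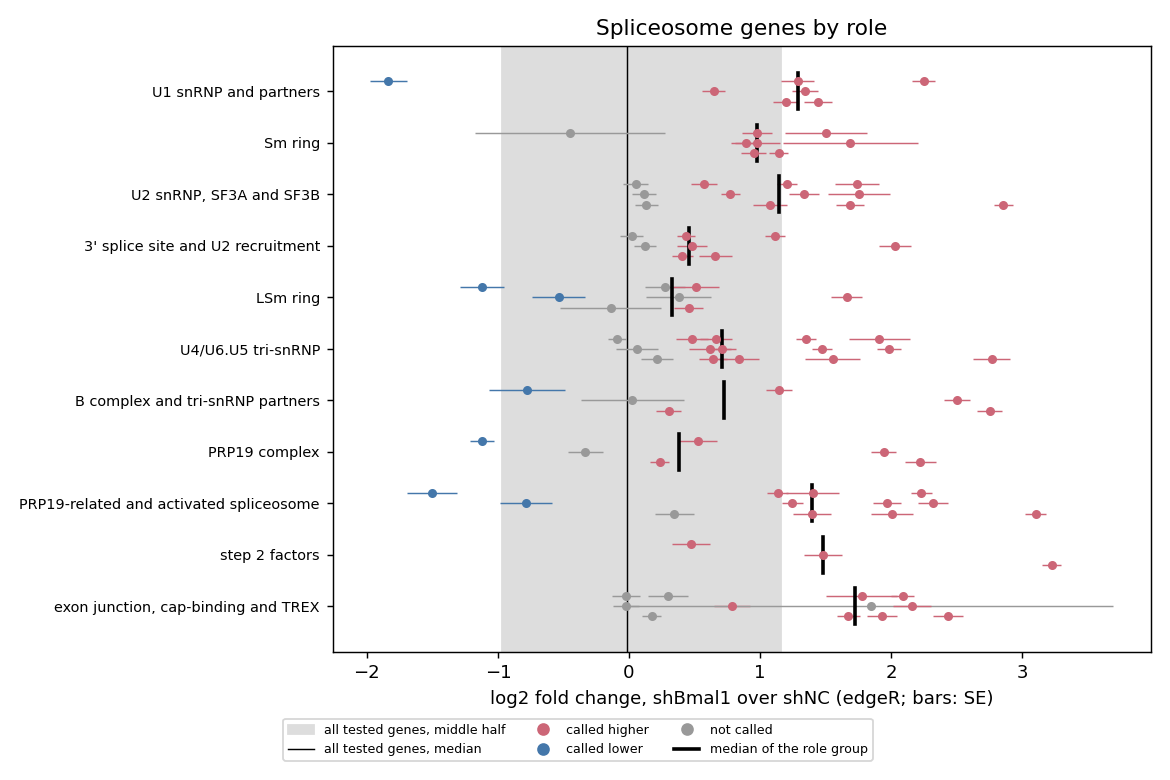
Log2 fold change of shBmal1 over shNC for each tested core spliceosome gene, by role; points are genes with their SE, thick bars are the medians of role groups, and the grey band spans the middle of all 14342 tested genes between their quartiles. Medians of all 11 role groups lie above the median of all genes (-0.01), from 0.33 in the LSm ring to 1.72 in the exon junction, cap-binding and TREX genes.

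In shNC libraries the members together took 0.416% ± 0.00191 (SD, n = 3) of all counts and in shBmal1 libraries 0.987% ± 0.0699 (SD, n = 3). This share leaves out LOC108348108 and LOC100911576, which are among 4 rows of other families described at the end. Without all 4 of those rows, the summed level of the members was 4384, 4367 and 4281 CPM in shNC and 8498, 9809 and 9498 CPM in shBmal1. The ratio of means was 2.13. The groups did not overlap.

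Genes of the U1 particle, which acts first, rose (Snrpc, Snrpa and Snrnp70), while 1 gene for a U1-associated protein fell. Of 7 genes for U1 proteins and their partners, 6 were higher and 1 was lower, with a median log2 fold change of 1.29. Snrpc, which encodes the U1-C protein that steadies the pairing of U1 with the intron start, had 38.4, 40.4 and 37.8 CPM in shNC and 167, 202 and 185 CPM in shBmal1. It rose by 2.25 ± 0.0862 (SE) on the log2 scale (edgeR adjusted p = 2.86e-07). Snrpa, for the U1-A protein, had 15.4, 15.2 and 14.5 CPM in shNC and 39.9, 37.4 and 45.4 CPM in shBmal1, a log2 fold change of 1.44 ± 0.108 (SE) (edgeR adjusted p = 8.82e-06). Snrnp70, for the U1-70K protein, was already the most abundant member per length in shNC and had 190.5, 197 and 197 CPM in shNC and 270.0, 341 and 303 CPM in shBmal1. Its log2 fold change was smaller, at 0.65 ± 0.0867 (SE) (edgeR adjusted p = 0.00026), and its call was lost on TPM (0.27, limma adjusted p = 0.0552) and on quantile-normalized FPKM (0.16, limma adjusted p = 0.0883). Rbm25l1 rose as well (1.34). Prpf40b, which encodes a U1-associated protein, was the member with the largest fall. It had 22.2, 23.7 and 20.9 CPM in shNC and 6.78, 6.27 and 5.71 CPM in shBmal1, a log2 fold change of -1.83 ± 0.142 (SE) (edgeR adjusted p = 1.1e-05).

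Most Sm ring genes rose. Of 8 rows, 7 were higher and none was lower, with a median of 0.98. Snrpd2, the most abundant per length of the 6 ring genes with one row, had 42.0, 42.1 and 38.9 CPM in shNC and 88.2, 89.3 and 93.7 CPM in shBmal1 and rose by 1.14 ± 0.072 (SE) (edgeR adjusted p = 3.42e-06). Snrpb had 61.0, 55.0 and 57.0 CPM in shNC and 90.1, 108 and 123 CPM in shBmal1, Snrpd3 had 20.6, 19.5 and 18.9 CPM in shNC and 38.9, 39.8 and 35.1 CPM in shBmal1 and Snrpf had 24.7, 22.3 and 22.2 CPM in shNC and 40.1, 51.6 and 44.5 CPM in shBmal1. Their log2 fold changes lay between 0.89 and 0.98, and in none of them did the groups overlap. Snrpd1 rose by 0.98. Snrpe had 5.88, 6.12 and 2.64 CPM in shNC and 28.2, 7.66 and 11.7 CPM in shBmal1, and its call (log2 fold change 1.69, edgeR adjusted p = 0.0184) was lost without the first shBmal1 library (0.96, edgeR adjusted p = 0.0707), without the third shNC library (1.40, 0.0555) and on TPM (1.17, limma adjusted p = 0.0677). The annotated Snrpe row spans 418 bases of chromosome 8.

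Several rows share a KEGG orthology entry with another row and were taken as copies, between which reads may be divided. Their sums were therefore also compared, a choice made after the data were seen. How alike the sequences of these rows are was not tested. Snrpg, a row of 382 bases on chromosome 1, had 3.63, 12.8 and 2.30 CPM in shNC and 2.04, 8.23 and 3.31 CPM in shBmal1 and was not called (-0.45, edgeR adjusted p = 0.598). LOC687679, the row paired with it, spans 7549 bases of chromosome 4. It had 16.9, 8.77 and 23.7 CPM in shNC and 49.4, 47.5 and 42.7 CPM in shBmal1 and rose by 1.50. Which of these 2 rows is the parent gene and which the copy was not tested. Summed, the pair rose by 1.16 (edgeR adjusted p = 5.63e-05), so the direction of Snrpg alone turned. The 2 Crnkl1 rows rose by 1.40 each and by 1.39 when summed. Snu13 and LOC100359574 rose by 1.47 and 1.55 and by 1.47 when summed. Wbp11l1 had 0 counts in every shNC library and 15, 1756 and 0 in shBmal1, and with it Wbp11 rose by 2.85. The second Ncbp2 row had counts in 1 shNC library (712) and in 2 shBmal1 libraries (402 and 259). Summed, Ncbp2 rose by 0.59 (edgeR adjusted p = 0.0333), while neither row was called on its own. The summed level was 42.8 ± 4.22 CPM in shNC and 64.4 ± 19.1 CPM in shBmal1 (SD, n = 3), and the groups overlapped. Lsm6 with LOC100360750 rose by 0.37 (edgeR adjusted p = 0.0417).

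In the U2 particle some subunits rose steeply and others stayed within the spread of the libraries. Of 12 genes for U2 proteins and the SF3A and SF3B complexes, 9 were higher and none was lower, with a median of 1.14. Sf3b4 (chromosome 2, 198312428 to 198317180, plus strand, build not given in the sources used here) encodes an SF3B subunit that contacts pre-mRNA near the branch site and is mutated in human Nager syndrome. It had 78.8, 78.7 and 72.4 CPM in shNC and 543, 531 and 588 CPM in shBmal1, a 7.24-fold rise (log2 2.86 ± 0.0705 (SE), edgeR adjusted p = 5.21e-08). Sf3b1, the scaffold of SF3B and a frequent target of mutation in human blood cancers, had 208, 226 and 227 CPM in shNC and 474, 552 and 496 CPM in shBmal1 and rose by 1.21 ± 0.0756 (SE) (edgeR adjusted p = 3.29e-06). Sf3b2 and Sf3b3, for 2 further SF3B subunits, were not called. Sf3b2 had 199, 185 and 188 CPM in shNC and 182, 204 and 231 CPM in shBmal1 (0.11, edgeR adjusted p = 0.296) and Sf3b3 had 117, 110.4 and 111 CPM in shNC and 109, 126 and 135 CPM in shBmal1 (0.13, edgeR adjusted p = 0.204). In both the groups overlapped. With library totals in place of TMM both were called higher (0.27, edgeR adjusted p = 0.0259, and 0.29, edgeR adjusted p = 0.0157), and Sf3b3 also without the first shBmal1 library (0.19, edgeR adjusted p = 0.0282). On quantile-normalized FPKM Sf3b2 turned to -0.26 (limma adjusted p = 0.0177).

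Among the smaller SF3B subunits Phf5a rose by 1.69, Sf3b6 by 1.76 and Sf3b5 by 0.57. The call of Sf3b5 was lost on TPM (0.20, limma adjusted p = 0.052) and on quantile-normalized FPKM (0.17, limma adjusted p = 0.165). Within SF3A, Sf3a3 had 30.9, 30.6 and 25.7 CPM in shNC and 51.3, 64.5 and 67.8 CPM in shBmal1 (1.08) and Sf3a1 had 84.0, 84.6 and 85.3 CPM in shNC and 133, 148 and 152 CPM in shBmal1 (0.77), and both rose. Sf3a2 had 49.7, 49.0 and 49.8 CPM in shNC and 58.1, 48.3 and 47.5 CPM in shBmal1 and was not called (0.05, edgeR adjusted p = 0.64), and on TPM it was lower (-0.32, limma adjusted p = 0.00706). The U2 proteins Snrpa1 (1.74) and Snrpb2 (1.34) rose.

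Factors that recognise the end of the intron and recruit U2 changed less. Of 8 genes, 6 were higher and none was lower, with a median of 0.46. Smndc1, which encodes the Tudor domain protein SPF30 and whose promoter holds CACGTG, had 25.8, 22.5 and 19.1 CPM in shNC and 96.6, 92.3 and 86.0 CPM in shBmal1. It rose by 2.03 ± 0.12 (SE) (edgeR adjusted p = 2.4e-06) and was the sole gene of the 8 to rise at least 4-fold. U2af1, for the U2AF subunit that reads the AG at the intron end, had 33.3, 34.2 and 36.7 CPM in shNC and 77.0, 75.8 and 72.2 CPM in shBmal1 (1.11). U2af2, for the subunit that binds the pyrimidine tract, had 103, 99.9 and 91.9 CPM in shNC and 128, 135 and 135 CPM in shBmal1. Its rise of 0.44 (edgeR adjusted p = 0.00059) was lost on TPM (limma adjusted p = 0.439), as were those of U2surp (0.48) and Rbm17 (0.41). Puf60 (0.12) and Cherp (0.02) were not called, and on TPM Cherp was at -0.34.

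Tri-snRNP genes were again divided between members of one particle. Of 15 genes 12 were higher and none was lower, with a median of 0.71. Prpf3 (chromosome 2, 197947010 to 197971463, minus strand) encodes a U4/U6 protein that is mutated in a human form of retinitis pigmentosa. It had 25.2, 27.3 and 24.4 CPM in shNC and 138, 201 and 183 CPM in shBmal1, a 6.81-fold rise (log2 2.77 ± 0.142 (SE), edgeR adjusted p = 1.15e-06). Its partner Prpf31 had 20.1, 20.1 and 17.5 CPM in shNC and 71.5, 79.8 and 76.6 CPM in shBmal1 (1.98), and the cyclophilin Ppih had 3.86, 3.89 and 3.44 CPM in shNC and 13.8, 17.5 and 10.7 CPM in shBmal1 (1.91). Prpf4, which binds PRPF3 and PPIH, had 16.6, 16.0 and 18.4 CPM in shNC and 20.1, 28.8 and 29.2 CPM in shBmal1. Its smaller rise (0.62, edgeR adjusted p = 0.00884) was lost on TPM (0.21, limma adjusted p = 0.303).

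The 2 largest U5 proteins differed. Snrnp200, the helicase that unwinds U4 from U6, had 195, 201 and 194 CPM in shNC and 452, 536 and 511 CPM in shBmal1 and rose by 1.35 ± 0.074 (SE) (edgeR adjusted p = 1.61e-06). Prpf8, the scaffold that holds the catalytic RNA core, had 332, 318 and 304 CPM in shNC and 279.7, 314 and 299.8 CPM in shBmal1, with overlapping groups (-0.09, edgeR adjusted p = 0.249). On TPM Prpf8 was lower (-0.46, limma adjusted p = 0.00196), as it was on quantile-normalized FPKM (-0.31, limma adjusted p = 0.00279). Prpf6, a bridge between U5 and U4/U6, rose by 0.71. Eftud2, the U5 GTPase, rose by 0.48, Snrnp40 by 0.84, Sart1 by 0.64 and Usp39 by 0.67. The calls of these last 4 were lost on TPM with 1 or both pseudocounts. Txnl4a (0.06) and Snrnp27 (0.21) were not called, but Snrnp27 was called higher without the first shBmal1 library (0.30, edgeR adjusted p = 0.0168) and with library totals (0.37, edgeR adjusted p = 0.0243).

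**Figure D2:**
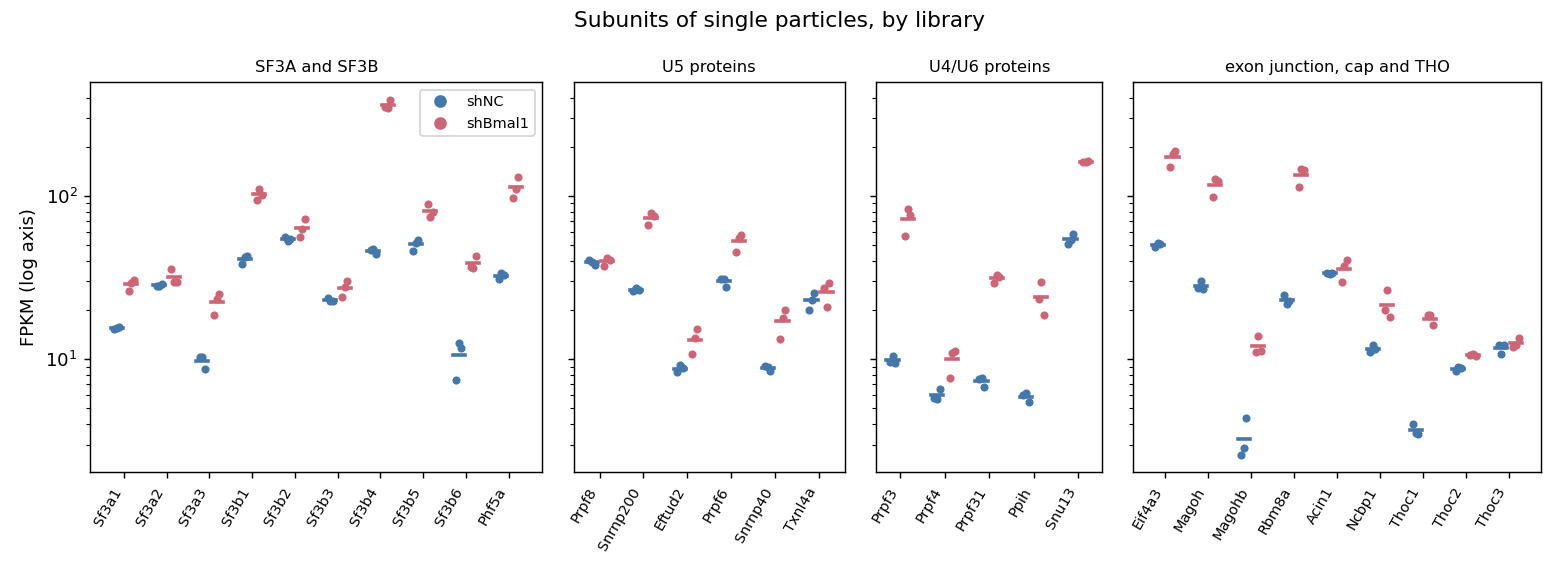
Deposited FPKM of subunits of single particles in each library on a log axis; points are libraries (3 per group) and bars are group means. In SF3A and SF3B the groups are far apart for Sf3b4 and overlap for Sf3b2 or lie close for Sf3a2, and among U5 proteins they are apart for Snrnp200 and overlap for Prpf8.

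Genes for proteins that enter with the tri-snRNP ranged from large rises to a fall. Prpf38a (chromosome 5, 128174835 to 128186532, minus strand), needed in yeast for release of U4, had 17.5, 18.9 and 17.4 CPM in shNC and 108, 130.2 and 124 CPM in shBmal1, a log2 fold change of 2.75 ± 0.0955 (SE) (edgeR adjusted p = 1.86e-07). Wbp11 (chromosome 4, 170154227 to 170186942, minus strand), a nuclear partner of PQBP1, had 31.8, 28.6 and 30.1 CPM in shNC and 177, 149.6 and 186 CPM in shBmal1 (2.50 ± 0.0987 (SE), edgeR adjusted p = 3.27e-07). Pqbp1 itself, which is mutated in a human X-linked intellectual disability, went down. It had 14.2, 12.1 and 10.2 CPM in shNC and 6.13, 4.89 and 10.2 CPM in shBmal1 (-0.78, edgeR adjusted p = 0.0399), so its groups nearly met, and the call was lost in 4 of 6 fits that left out a library (edgeR adjusted p = 0.0875 to 0.129). Zmat2 had a small rise (0.30, edgeR adjusted p = 0.0202) that was lost when any single shNC library was left out, without the second or the third shBmal1 library, and on TPM, where it turned to -0.08. Of the 6 genes tested here 4 were higher and 1 was lower, with a median of 0.72, and Rp9 was not called (0.03). Relative to all tested genes this median was 0.74, but 1.16 without the second and 1.14 without the third shNC library, when Wbp11l1 entered the test.

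LSm ring genes, whose proteins bind the end of U6 RNA, moved in both directions. Of 8 rows 3 were higher (37.5%, beside 36.0% of all genes), 2 were lower and 3 were not called, with a median of 0.33. Relative to the median of all tested genes that is 0.34, and it turned to -0.0589 without a count filter and to -0.11 with a gene length correction. Lsm3 had 12.4, 11 and 11.04 CPM in shNC and 32.5, 37.5 and 38.9 CPM in shBmal1 and rose by 1.66 ± 0.119 (SE) (edgeR adjusted p = 6.91e-06). Lsm7 had 14.4, 12.6 and 14.9 CPM in shNC and 6.56, 6.84 and 5.87 CPM in shBmal1 and fell (log2 -1.12 ± 0.167 (SE), edgeR adjusted p = 0.000484). Lsm8, the subunit that marks the nuclear ring as against the cytoplasmic ring of mRNA decay, had 10.5, 8.96 and 11.4 CPM in shNC and 7.31, 8.07 and 5.87 CPM in shBmal1. Its fall (-0.54, edgeR adjusted p = 0.0436) was lost without the first or the third shNC library or the third shBmal1 library (edgeR adjusted p = 0.0805 to 0.126) and with DESeq2 (adjusted p = 0.0563). Lsm4 (0.45) and Lsm6 (0.51) were called higher, and both calls were lost on TPM. That of Lsm6 (edgeR adjusted p = 0.0326) was also lost in 4 of 6 fits without a library (edgeR adjusted p = 0.0877 to 0.11). Lsm2 (0.28) and Lsm5 (0.38) were not called, but Lsm2 was called higher with library totals (edgeR adjusted p = 0.0314) and on quantile-normalized FPKM (limma adjusted p = 0.042).

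Genes of the PRP19 complex moved in opposite directions. Prpf19 (chromosome 1, 226947105 to 226958144, plus strand) encodes the ubiquitin ligase at its centre. It had 114, 116 and 113 CPM in shNC and 58.8, 52.1 and 47.0 CPM in shBmal1, a 2.17-fold fall (log2 -1.12 ± 0.0901 (SE), edgeR adjusted p = 1.34e-05), while Plrg1, which binds PRP19 and CDC5L, had 31.3, 27.8 and 27.6 CPM in shNC and 117, 156 and 131 CPM in shBmal1 and rose by 2.22 ± 0.118 (SE) (edgeR adjusted p = 1.37e-06). Cwc15 rose by 1.94, with 20.6, 21.3 and 22.7 CPM in shNC and 92.4, 77.8 and 78.4 CPM in shBmal1. Cdc5l, a Myb-related scaffold of the complex, had 48.5, 49.6 and 46.4 CPM in shNC and 57.3, 56.3 and 56.1 CPM in shBmal1. This rise of 0.23 (edgeR adjusted p = 0.0176) was lost in 3 of 6 fits without a library (edgeR adjusted p = 0.0547 to 0.0779) and turned on TPM (-0.13). Ctnnbl1 (0.53) lost its call without the second or the third shBmal1 library (edgeR adjusted p = 0.0542 and 0.0538) and on TPM. Bcas2 had 31.3, 26.0 and 24.5 CPM in shNC and 19.5, 23.5 and 21.8 CPM in shBmal1, so that the groups did not overlap, but it was not called (-0.33, edgeR adjusted p = 0.0531). It was lower on TPM (-0.69, limma adjusted p = 0.00218). In all, 4 of these 6 genes were higher and 1 was lower, with a median of 0.38.

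Among 12 rows for PRP19-related proteins and others of the activated spliceosome, 9 were higher and 2 were lower, with a median of 1.40. Bud31 (chromosome 12, 11232964 to 11240399, minus strand), known in yeast as a factor of the catalytic spliceosome, had 24.5, 23.5 and 26.0 CPM in shNC and 199, 211 and 225 CPM in shBmal1, an 8.59-fold rise (log2 3.10 ± 0.0789 (SE), edgeR adjusted p = 5.46e-08). Syf2 had 39.4, 41.3 and 41.9 CPM in shNC and 176, 206 and 192 CPM in shBmal1 (2.23), and Ppie, a cyclophilin, had 10.9, 10.9 and 11.7 CPM in shNC and 48.6, 61.1 and 57.0 CPM in shBmal1 (2.32). Snw1, also a transcription coactivator known as SKIP, rose by 2.00, Xab2 by 1.97, Rbm22 by 1.25 and the helicase-like Aqr by 1.13. Ccdc12 went the other way, with 14.3, 14.1 and 14.4 CPM in shNC and 5.59, 3.99 and 5.54 CPM in shBmal1 (log2 -1.50 ± 0.191 (SE), edgeR adjusted p = 0.000194). Ppil1, a further cyclophilin, had 13.9, 13.5 and 13.9 CPM in shNC and 10.0, 6.27 and 7.77 CPM in shBmal1 (log2 -0.78 ± 0.197 (SE), edgeR adjusted p = 0.00759). The row of Ppil1 spans 348934 bases, so that reads of other genes inside it may be counted with it. Isy1 was not called (0.35, edgeR adjusted p = 0.0705), but it was called higher with DESeq2 (0.41, adjusted p = 0.0288), with RLE scaling, library totals or thinned libraries (edgeR adjusted p = 0.0128 to 0.0412) and without the first shBmal1 library (0.45, edgeR adjusted p = 0.00946).

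All 3 step 2 factors were higher, with a median of 1.48. Slu7 (chromosome 10, 29029590 to 29044583, plus strand), which helps to choose the AG at which the exons are joined, had 37.3, 38.3 and 36.2 CPM in shNC and 324, 367 and 354 CPM in shBmal1, a 9.36-fold rise (log2 3.23 ± 0.0723 (SE), edgeR adjusted p = 4.32e-08). Its lowest shBmal1 library lay far above its highest shNC library. Cdc40, known in yeast as Prp17, had 14.7, 14.6 and 16.7 CPM in shNC and 34.8, 43.6 and 49.2 CPM in shBmal1 (1.48). Prpf18 had 43.1, 41.4 and 43.0 CPM in shNC and 61.2, 69.7 and 46.0 CPM in shBmal1. Its rise (0.47, edgeR adjusted p = 0.0171) was lost without the first or the second shBmal1 library (edgeR adjusted p = 0.0554 and 0.0766) and on TPM.

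**Figure D3:**
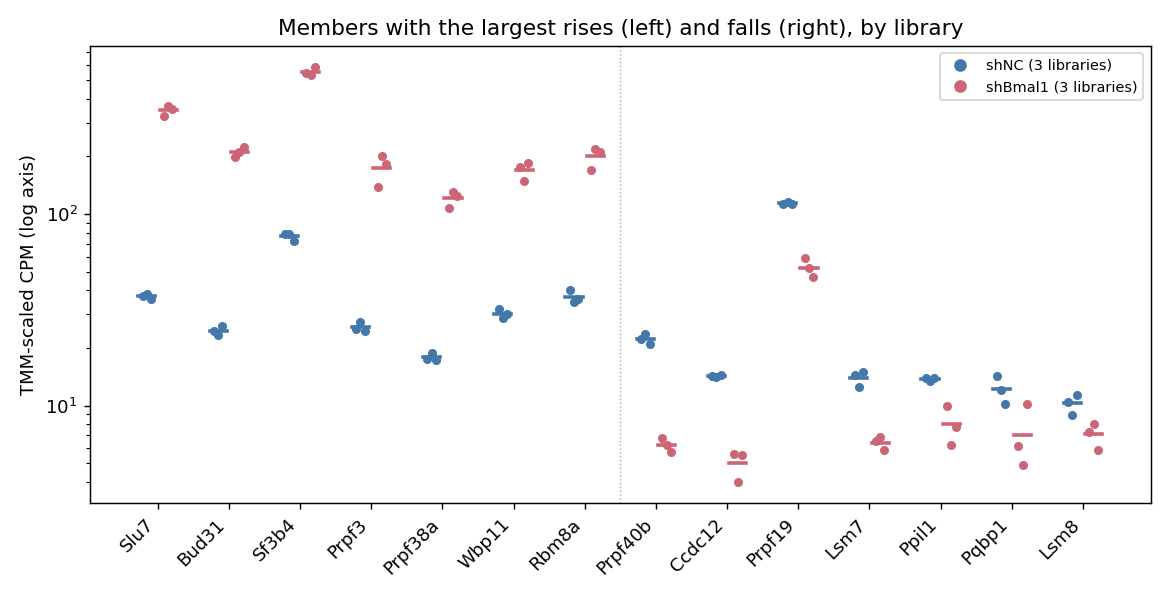
TMM-scaled CPM in each library, on a log axis, of the splicing factor genes with the largest called rises (left of the dotted line) and of those with called falls (right); points are libraries and bars are group means. The groups are apart in each of these genes, from Slu7 (log2 fold change 3.23) to Prpf40b (-1.83), and nearly meet in Pqbp1.

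Rbm8a, Magoh and Eif4a3 of the exon junction complex rose together while Acin1 did not, and genes for export factors rose in part. Of 12 rows for exon junction, cap-binding and TREX proteins 7 were higher and none was lower, with a median of 1.72. The share called was 58.3%, beside 71.3% of all genes, of which 36.0% were higher. Rbm8a (chromosome 2, 198755262 to 198758028, plus strand), for the Y14 protein, had 40.4, 34.9 and 36.2 CPM in shNC and 170.4, 219.9 and 212 CPM in shBmal1 (2.44 ± 0.114 (SE), edgeR adjusted p = 7.08e-07). Its partner Magoh had 20.2, 21.8 and 19.5 CPM in shNC and 66.1, 85.2 and 82.2 CPM in shBmal1 (1.93), and Eif4a3, the helicase that clamps the complex on RNA, had 80.2, 83.2 and 81.2 CPM in shNC and 227, 271 and 281 CPM in shBmal1 (1.67). Acin1, a peripheral protein of the complex, had 177, 172 and 173 CPM in shNC and 144, 178 and 191 CPM in shBmal1, with overlapping groups (-0.02, edgeR adjusted p = 0.865), and was lower on TPM (-0.40, limma adjusted p = 0.0239).

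In the THO part of TREX, which couples transcription to export, Thoc1 had 6.596, 5.80 and 5.58 CPM in shNC and 28.2, 28.0 and 24.1 CPM in shBmal1 and rose by 2.16 ± 0.142 (SE) (edgeR adjusted p = 4.26e-06). Thoc2, its large scaffold, had 47.4, 49.6 and 48.2 CPM in shNC and 54.6, 55.7 and 53.1 CPM in shBmal1. It was not called in edgeR (0.17, adjusted p = 0.0575) but was higher with DESeq2 (0.23, adjusted p = 0.00745). Thoc3 had 28.5, 24.6 and 27.9 CPM in shNC and 25.4, 26.1 and 28.2 CPM in shBmal1 (-0.02, edgeR adjusted p = 0.859) and was lower on TPM (-0.38, limma adjusted p = 0.0127). Alyref, the export adaptor, had 53.1, 47.0 and 42.7 CPM in shNC and 197, 210.0 and 199 CPM in shBmal1 and rose by 2.09. Ncbp1, the large subunit of the cap-binding complex, rose by 0.79, a call lost on TPM (0.38, limma adjusted p = 0.0521).

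Levels can be set side by side between genes as FPKM, which is per length. In shNC the 5 highest members were Snrnp70 at 73.9 ± 2.14 FPKM (SD, n = 3), Sf3b2 at 54.5 ± 1.69, Snu13 at 54.2 ± 4.19, U2af2 at 53.0 ± 2.49 and Sf3b5 at 50.4 ± 3.98. Snrnp70 stood above the rest in each library, whereas neighbours among the next 4 did not differ beyond their spread. In shBmal1 the highest splicing factor genes were Sf3b4 at 360.1 ± 22.6 FPKM, Bud31 at 187 ± 13.3, Eif4a3 at 173 ± 20.3, Snrpc at 172 ± 16.6 and Snu13 at 162 ± 2.16. Of these Sf3b4 stood apart, and Eif4a3 and Snrpc lay within the spread of each other. Among all 102 rows Bud31 moved from rank 38 to rank 3, Slu7 from 50 to 7 and Prpf19 from 7 to 64. Spearman's correlation of mean FPKM between the groups was 0.69 over the 97 tested genes without the 4 rows of other families, a description across genes that share libraries and are not replicates.

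Proteins that sit in equal numbers in a ring had transcripts at unequal levels. Over the 6 Sm genes with one row, mean FPKM in shNC ran from 8.54 for Snrpd3 to 40.6 for Snrpd2, a 4.76-fold range, and in shBmal1 from 17.8 to 96.9 for the same genes, a 5.45-fold range. The order depends on the lengths used in FPKM. In mean CPM, which is not divided by length, Snrpd3 (19.7) lay above Snrpd1 (16.4) and Snrpe (4.88) in shNC. Over 12 genes of U2, SF3A and SF3B the range of mean FPKM was 5.56-fold in shNC and 16.1-fold in shBmal1, where Sf3b4 was the highest and Sf3a3 the lowest. Tri-snRNP genes spanned 9.19-fold in shNC and 16.3-fold in shBmal1, LSm genes 6.61-fold and 7.39-fold, exon junction, cap-binding and TREX genes 15.3-fold and 16.2-fold, and PRP19 complex genes 4.95-fold and 4.83-fold.

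**Figure D4:**
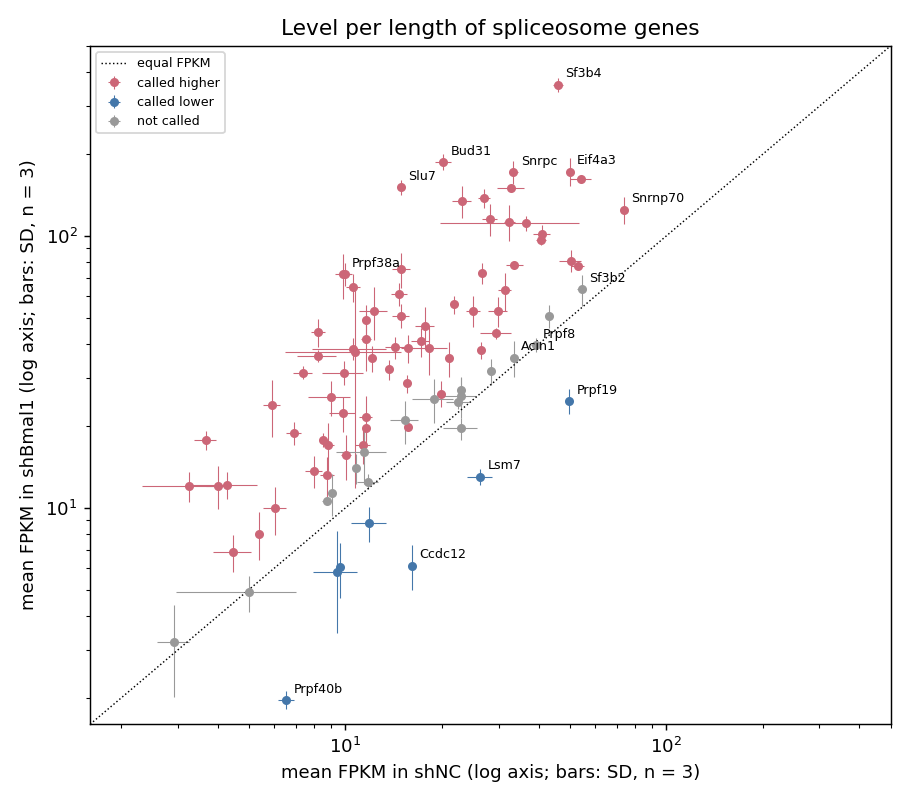
Mean FPKM of 95 tested core spliceosome genes in shBmal1 against shNC on log axes; bars are SDs over 3 libraries, and rows of other families and the 2 rows with the widest spread (Snrpg and the second Ncbp2 row) are not drawn. Sf3b4, Bud31 and Slu7 lie far above the line of equal FPKM, Prpf8 lies on it, and Prpf19, Ccdc12, Lsm7 and Prpf40b lie below.

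Related genes divided their counts differently in 3 of the 6 pairs described here, in the sense that the libraries of the groups did not overlap. With 3 against 3 libraries the smallest p of the exact two-sided permutation test is 0.1, and 0.175 after adjustment over all 7 pairs compared, so no pair could pass. Prpf38b took 75.3%, 75.8% and 76.8% of the counts of Prpf38a and Prpf38b in shNC and 50.1%, 50.9% and 51.7% in shBmal1 (exact permutation p = 0.1). Both genes rose, Prpf38a by 2.75 and Prpf38b by 1.15.

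Snrpn, which encodes a relative of the Sm protein of Snrpb and is not in the member set, took 10.1%, 6.94% and 10.7% of their summed counts in shNC. It had 0, 0 and 14 counts in the shBmal1 libraries, against 305, 193 and 288 in shNC (exact permutation p of the share = 0.1). The share of U2af1l4 in its pair with U2af1 was 30.3% ± 1.80 (SD, n = 3) in shNC and 24.1% ± 1.36 in shBmal1 (exact permutation p = 0.1). In the other pairs the libraries of the groups overlapped. Magohb held 12.2% ± 3.37 and 11.1% ± 1.22 of its pair with Magoh (exact permutation p = 0.8), Snrpb2 51.5% ± 1.28 and 49.6% ± 4.44 of its pair with Snrpa (p = 0.6, exact) and Rbmxl1 68.6% ± 2.54 and 68.5% ± 3.74 of its pair with Rbmx (p = 1.0, exact).

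**Figure D5:**
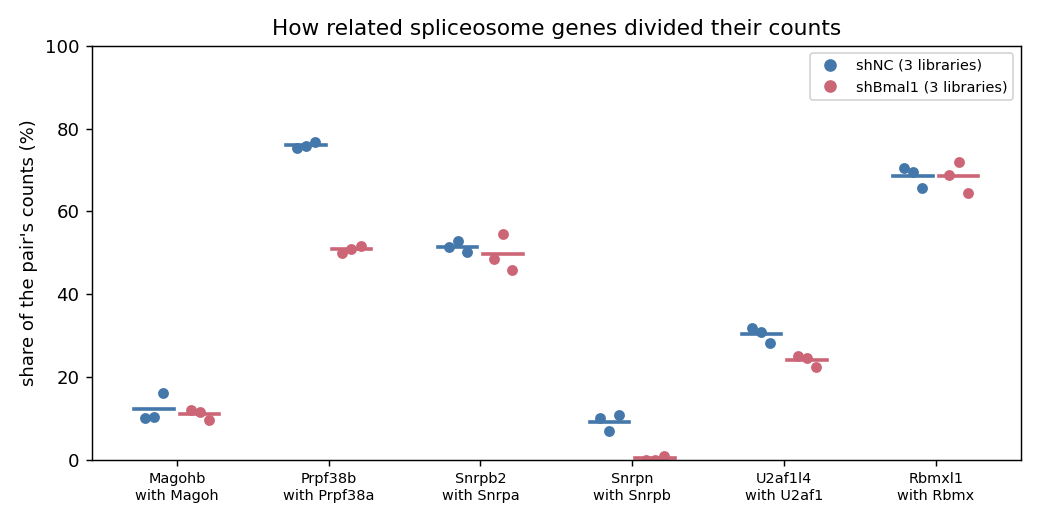
Share of the second gene, in percent of the summed counts of a pair of related genes, in each library; points are libraries (3 per group) and bars are group means. Shares of Prpf38b, Snrpn and U2af1l4 are lower in every shBmal1 library than in every shNC library, and the other 3 shares overlap.

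The symbol rule kept 4 rows that are not core factors, of which 2 were called, both higher. LOC108348108, described in the deposited annotation as heat shock 70 kDa protein 1A, had 7, 4 and 4 counts in shNC and 15839, 40991 and 37884 in shBmal1. It is counted among the 72 rises but passed the filter on low counts through shBmal1 alone, so no fold is given. LOC100911576, described as an hnRNP, had 51.9, 44.6 and 58.6 CPM in shNC and 9.04, 159 and 61.1 CPM in shBmal1 and was not called (0.57, edgeR adjusted p = 0.503), but it was called without the first shBmal1 library (1.06, edgeR adjusted p = 0.032). Rbmx was not called (0.36) except in other settings such as DESeq2 (0.42, adjusted p = 0.0268), and Rbmxl1 was (0.36), a call lost on TPM (-0.02). Without these rows 70 of 97 tested members were higher, 7 lower and 20 not called. Rises of at least 2-fold were then called in 46 members (25.4% of all genes). In 72 members all shBmal1 libraries lay above all shNC libraries (38.2% of all genes).

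Splicing genes outside the KEGG term were counted in the same fit. Of 10 genes found for proteins of the minor spliceosome, which removes a rare class of introns, 8 were higher and 1 lower, with a median of 0.97. Snrnp48 rose by 2.61 and Rnpc3, which binds U12 RNA, by 1.72, and Pdcd7 fell (-0.66, edgeR adjusted p = 0.0176). Of 20 genes for the assembly and import of these particles 11 were higher, 5 lower and 4 not called, with a median of 0.42; over all genes 71.3% were called. Rises were seen in Strap (1.93) and Gemin6 (1.98) of the SMN complex and in Usp15 (2.30), a ubiquitin protease. Falls were seen in Gemin4 (-1.87), Gemin8 (-0.63), Snupn (-1.35), the import adaptor of the particles, Clns1a (-0.96), which holds Sm proteins before assembly, and Lsm10 (-1.81) of the U7 particle. Smn1 rose by 0.56. Of 7 kinases tested, 4 were higher and 1 lower, with a median of 0.93, where the share of all genes called was again 71.3%. Clk4 (2.63), Clk1 (2.50) and Clk3 (1.96), which phosphorylate SR proteins in the nucleus, and Dyrk1a (0.93) rose, and the SR protein kinase Srpk2 fell (-1.18).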

How the data were processed

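Per the labels' protocols, libraries were made from poly(A)-selected RNA and read from both ends; the same text mentions poly(A)- fractions and adipose tissue. Tools in the submitters' processing notes are HISAT2 2.0.4, cutadapt 1.9, DESeq2, edgeR and StringTie 1.3.4d, with no roles. Genome build, annotation release, strand use and read counter: not given in the sources used here. In the deposited table are raw counts per gene and library, and FPKM, computed by the authors per length and depth, per the file headers. FPKM followed the counts in 10394 genes with over 20 counts in every library (SD of the log2 ratio over libraries at most 0.0571), and genes with no count are listed at 1e-04.

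Groups came from the sample titles. Genes were kept by filterByExpr with a minimum count of 10 and a minimum total of 15. It scales the minimum count to library size, so fewer counts sufficed in the shallower shBmal1 libraries. Tie1 was tested with 4, 0 and 4 counts in shNC and 12, 7 and 7 in shBmal1. Kept genes received TMM scaling (shNC factors 0.936 to 0.956, shBmal1 factors 1.05 to 1.06). They were compared by glmQLFit and glmQLFTest of edgeR 4.0.16 in R 4.3.3 at a Benjamini-Hochberg adjusted p under 0.05 over all 14342 genes tested, without a replicate block. Alternatives used DESeq2 1.42.0 and limma 3.58.1. FPKM were rescaled to TPM by dividing by their sum in each library, and log2 values of TPM took a pseudocount of 1 or 0.1. The procedure was run on simulated counts with few changed genes. That setting is unlike these data, so the run does not give the error rate here. A level of 3 counts was 0.0603 to 0.0681 CPM in shNC and 0.257 to 0.342 CPM in shBmal1, counting error only. Libraries of a group all differed beyond sampling noise (chi-square over its degrees of freedom between 11.2 and 25.2).

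Members and gene lists were chosen with earlier results of these data known. Library values were given for the 8 largest rises and the falls among called members with separate groups and at least 10 CPM on average where higher, for the 5 highest members by FPKM, and for further core genes where a result turned on them. Some members are not reported here by name.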

Additional observations from a re-analysis of the deposited data

How the results depend on the processing

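Replicate numbers did not pair the libraries (correlations of same-numbered libraries -0.07, -0.00258 and 0.0203), and with a replicate block 72 members were higher and 5 lower. When each library was left out in turn, 75 to 79 members were called, 68 to 73 higher and 5 to 7 lower; 66 of the 72 rises and 5 of the 7 falls were called in all 6 of these fits. Over all 17 settings with a test, 52 rises and 4 falls were called throughout. Of the losses, LOC108348108 and Ccdc12 were merely untested with at least 50 counts in every library. More members were lower on TPM (13 with either pseudocount) and on quantile-normalized FPKM (11). The median of all genes moved by -0.33 and -0.41 on TPM with pseudocounts of 1 and 0.1, -0.12 on quantile-normalized FPKM, 0.16 with library totals, 0.33 without a count filter and -0.25 with a gene length correction.

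Without a filter on low counts, which adds low genes to the reference, medians relative to that of all tested genes were 0.59 for the members and for the Sm ring, 0.0721 for intron end recognition, 0.90 for U1, 0.76 for U2, 0.32 for the tri-snRNP, 1.01 for PRP19-related genes, 1.34 for exon junction, cap-binding and TREX genes and 1.09 for step 2 factors, and they reversed for the LSm ring (-0.0589) and the PRP19 complex (-0.00671). With the length correction they were 0.89 for B complex genes, 0.54 for the PRP19 complex, 1.57 for PRP19-related genes, 0.76 for the Sm ring, 1.47 for U1 and 1.25 for exon junction genes, and reversed for the LSm ring (-0.11). The B complex median was 1.14 with at least 50 counts in every library, and the Sm ring median 1.11 in libraries thinned to the smallest total. Without single libraries the B complex median ran from 0.67 to 1.16, that of PRP19-related genes from 1.32 to 1.43 and that of exon junction genes from 1.36 to 1.78.

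Single genes reversed as follows. On TPM with pseudocounts of 1 and 0.1 these were Cherp (-0.34 and -0.35), Zmat2 (-0.0761 and -0.0777), Cdc5l (-0.13 and -0.14), Sf3a2 (-0.32 with both) and Rbmxl1 (-0.0188 and -0.0192). Lsm4 (-0.0206) and Sf3b5 (-0.11) reversed with the length correction, Sf3b2 (-0.26) on quantile-normalized FPKM and Snrpg (1.16) when summed with LOC687679. With the length correction 59 further members moved by at least their SE, and 40 stayed within it. Among those that moved were Snrpe (to 0.54), Sf3b6 (to 0.53) and Lsm7 (to -2.14). Apart from the changed reference, the cause was not tested. Levels from CPM and an independent gene length were not run, because no length apart from that in FPKM was used here. Depth limits low genes in shBmal1, where 3 counts are worth up to 0.342 CPM.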

Other observations

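Across genes, which are not independent replicates and share all 6 libraries, the log2 fold change of the 97 tested core genes had a Spearman correlation of -0.11 with relative gene length and of -0.08 with their FPKM in shNC. Over all tested genes the same values were -0.14 (13942 genes with a length) and -0.30 (14342 genes).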
